A study of Rattus norvegicus with 6 samples.

Results

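The nuclear genes for the protein subunits of oxidative phosphorylation were measured in rat brain after intracerebral hemorrhage (ICH), bleeding within the brain, and after a sham operation. Each probe of a single-channel Agilent rat array was matched through its RefSeq transcript to a rat gene symbol, and the members were the symbols of the Nduf, Sdh, Uqcr, Cyc1, Cox4 to Cox8 and Atp5 series. This gave 94 of the 30367 probes and 76 of the 15437 gene symbols on the array, and the rule used no measured value. Of these, 93 probes for 75 genes were well above background on at least 3 of the 6 arrays, and each of the 93 was so on all 6. The probe of the remaining gene, Cox8c, the testis form of a complex IV subunit, was at background level on 6 of 6 arrays. Measured were 31 genes of complex I, 4 of complex II, 8 of complex III, 16 of complex IV and 16 of complex V. Genes were assigned by symbol. Complex IV thus includes the transcribed pseudogene Cox6c-ps1, and complex I includes Ndufa4, a protein known to sit in complex IV. No probe was matched to Cyc1, Cox7a1, Ndufa4l2 or Atp5mc3.

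The ICH group held 3 samples and the sham group 3 samples, 1 array each, which the labels call biological replicates; the number of rats behind each sample is not stated. The ICH samples are labelled as peripheral brain tissue, placed around the hematoma by the series title, and the sham samples as brain tissue. All 6 carry the label day 1 without a stated origin of the count. The design text calls the ICH replicates transfected, which no other label does, and neither strain nor the way the bleed was made nor the dissection is stated. Values are log2 of the signal relative to the 75th percentile of the array, and a difference is ICH minus sham, ± SE, with n = 3 arrays in each group. The 75th percentile of the signal lay between 5230 and 5457 on ICH arrays and between 4616 and 4838 on sham arrays, 81.8% to 85.4% of spots were well above background, and 0 spots were saturated. The number of arrays limits the precision.

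Oxidative phosphorylation runs in the inner mitochondrial membrane. Complex I (NADH dehydrogenase) and complex II (succinate dehydrogenase) feed electrons to ubiquinone, complex III (the cytochrome bc1 complex) passes them to cytochrome c, and complex IV (cytochrome c oxidase) passes them to oxygen. Complexes I, III and IV pump protons, and complex V (ATP synthase) lets them flow back to make ATP, on which neurons depend for ion pumping. Most subunits are encoded in the nucleus and described here, whereas a few, among them the catalytic subunits of complex IV, are encoded by mitochondrial DNA.

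Most of the genes were lower in ICH by a small amount, and none passed the test. Of the 75 genes, 67 were lower and 8 higher in ICH, where 52.7% of all symbols were lower, and the median difference was −0.25, against −0.04 over all 24650 probes tested. Differences ran from −0.93 for Cox7c to 0.84 for Cox6a2. limma with Benjamini-Hochberg adjustment over all probes called 0 of the 93 member probes (smallest adjusted p = 0.288) and 0% of the 24650 probes (smallest adjusted p = 0.0596). At an unadjusted p under 0.05, 25 of the 93 member probes were lower and 0 higher, against 8.82% of all probes lower and 6.18% higher. By gene these were 20 of 75 lower and 0 higher, against 7.67% and 6.5% of the 12960 symbols. All 3 ICH values lay below all 3 sham values for 43 of the 75 genes, where 16.2% of all symbols did so, and the reverse held for Ndufa11 only, against 11.5% of symbols. Leaving out 1 array changed the 20 genes to 12 (ICH 1), 26 (ICH 2), 25 (ICH 3), 1 (sham 1), 5 (sham 2) or 6 (sham 3), with 0 member probes called each time. The share of all probes lower at that p moved with it, at 7.31%, 11.2%, 11.6%, 3.07%, 5.56% and 4.43% in the same order. The direction is relative to the 75th percentile. With each array centred on its spike-in control probes, the median of all probes moved to 0.46, and 64 of the 75 genes were higher and 11 lower. That centring shifts all probes of an array alike. The count of genes below the median of all probes, 62 with either centring, therefore could not change and gives no check. With quantile normalization 45 genes were lower and 30 higher, with a median of −0.05 against 0.01 for all probes.

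Other bright probes were lower in ICH as well. The members' probes lie high in the signal range, with a median level above that of 95.0% of probes, and 66 of the 93 lay among the brightest 10% of probes. Over the 2465 probes of that bin, 85.4% were lower in ICH, 23% were lower at an unadjusted p under 0.05, 48.8% had all ICH values below all sham values and 2.56% above them, and the median difference was −0.21. The 66 member probes in the bin had 63 lower and a median of −0.25. In the next bin down the median was −0.12 over all probes and −0.40 over the 12 member probes there, of which 10 were lower. Over the 15 member probes below these 2 bins, 7 were lower.

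**Figure D1:**
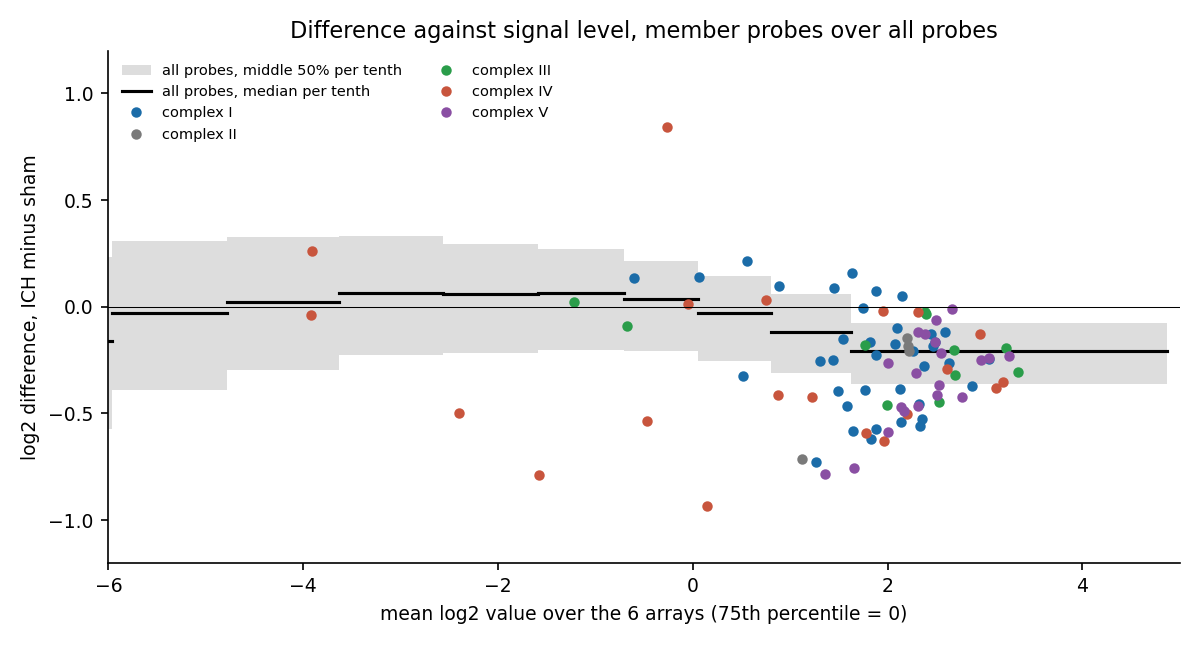
Difference in log2 value, ICH minus sham, against mean log2 value over the 6 arrays for the 93 member probes, coloured by complex. The black lines and grey bands give the median and the middle 50% of all probes in each of 10 equal bins of level; the bands fall below 0 in the brightest bin, where 66 of the member probes lie, and spike-in centring turns the sign of most differences.

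The ICH arrays varied more than the sham arrays, and ICH 3 was nearest to sham. The median of the 75 genes, relative to the sham mean, was −0.29, −0.33 and −0.11 on ICH 1, 2 and 3, against 0.01, −0.002 and −0.02 on sham 1, 2 and 3. ICH 3 held the lowest ICH value of only 2 genes, where ICH 1 held it for 38 and ICH 2 for 35. It was also seldom lowest over the 2465 probes of the brightest bin, with 246, against 1123 for ICH 1 and 1096 for ICH 2. On ICH 3, 48 genes lay below all sham arrays, and on ICH 1 and on ICH 2, 63 did. Of the 12960 symbols, 4260, 6233 and 4751 did so on ICH 1, 2 and 3. Of the 2465 probes of that bin, 1872, 1730 and 1659 did. The median standard deviation of a member gene was 0.22 among ICH arrays and 0.04 among sham arrays, against 0.31 and 0.14 over all probes. All arrays shared 1 slide, with ICH 1 in the slide row of the sham arrays and ICH 2 and ICH 3 in the other row. The shared row sets a single ICH array against sham, so it gives no check of the groups. On ICH 1, 68 of the 75 genes were below the sham mean, where 45% of all symbols were. Bright probes were low there as well, with a median of −0.26 over the brightest bin, against −0.29 over the members.

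Complexes IV and V had the lowest medians, a difference between complexes that was not tested. The median difference over genes was −0.23 in complex I, −0.20 in complex II, −0.19 in complex III, −0.40 in complex IV and −0.28 in complex V. Taken per array, the complex medians averaged −0.21 ± 0.14 (SD, n = 3 ICH arrays) for complex I, −0.21 ± 0.15 for complex II, −0.21 ± 0.09 for complex III, −0.34 ± 0.12 for complex IV and −0.33 ± 0.13 for complex V, on a scale where the sham arrays lay between −0.03 and 0.04. All complexes share these arrays, so that spread is not the error of a difference between them. On ICH 1, 2 and 3 the median was −0.42, −0.38 and −0.18 in complex V and −0.47, −0.31 and −0.23 in complex IV, against −0.25, −0.33 and −0.05 in complex I, −0.22, −0.35 and −0.05 in complex II and −0.30, −0.22 and −0.11 in complex III. Complex V was thus below complexes I, II and III on each ICH array, and complex IV was so on ICH 1 and ICH 3. Complex IV had the lowest median in 18 of 19 alternative settings. Several of these could not change the order, as they shift whole arrays or change only the filter or the variance. Without ICH 1 complex IV stood at −0.25 and complex V, at −0.27, was lowest. Without ICH 2, complex I stood at −0.13. Lower and higher genes numbered 26 and 5 in complex I, 4 and 0 in complex II, 8 and 0 in complex III, 13 and 3 in complex IV, and 16 and 0 in complex V. Genes lower at an unadjusted p under 0.05 were 6, 1, 1, 5 and 7 in complexes I to V. That is 19.4%, 25%, 12.5%, 31.2% and 43.8% of each, against 7.67% of all symbols and 23% of the brightest 10% of probes. The median difference of that bin was −0.21, near those of complexes I, II and III. Median levels in complexes I to V were above those of 94.4%, 95.3%, 96.5%, 88.5% and 97.1% of probes. The bin is thus not matched to complex IV in level. All medians were above 0 with spike-in centring, from 0.11 for complex IV to 0.32 for complex III.

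**Figure D2:**
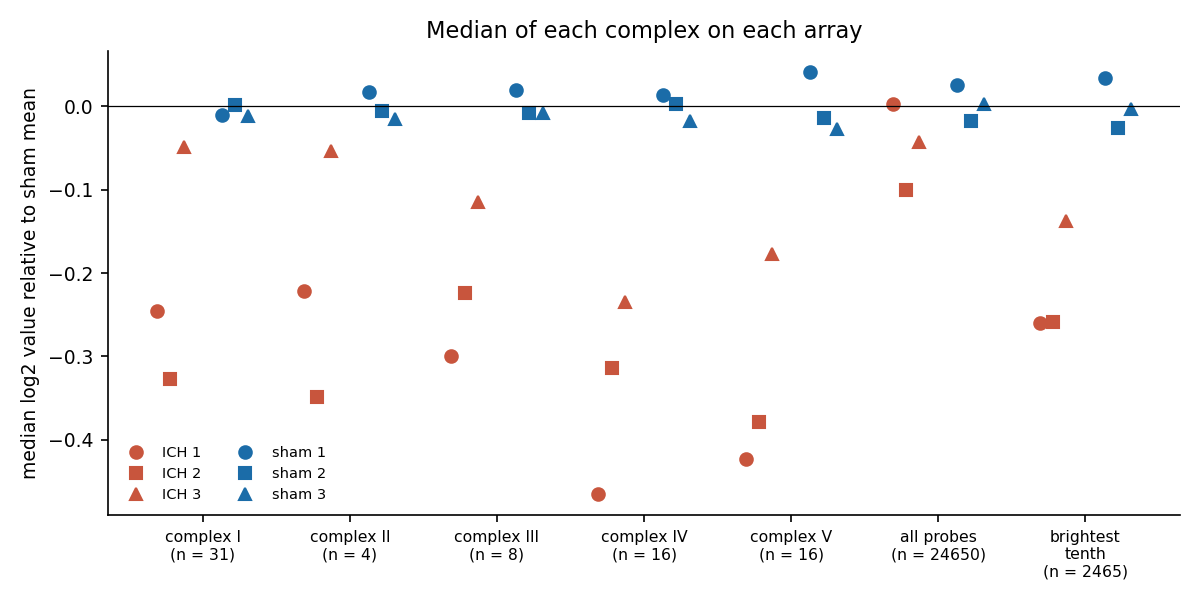
Median log2 value of the genes of each complex on each array, relative to the sham mean of each gene, beside the same for all probes and for the brightest 10% of probes. ICH arrays are drawn left of sham arrays; all 15 ICH medians of the complexes lie below the sham medians on this scale, ICH 3 is the highest ICH array in each complex, and spike-in centring turns the sign.

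Complex I carries its flavin and iron-sulfur centres in a core shared with bacteria, surrounded by accessory subunits. Among its core genes, Ndufv1, which binds NADH and flavin, had values of 2.54, 2.25 and 2.72 on ICH 1 to 3 and 2.75, 2.76 and 2.78 on sham 1 to 3. All ICH arrays were below all sham arrays, ICH 2 furthest and ICH 3 close to sham, and the difference was −0.26 ± 0.16 (limma adjusted p = 0.450). Its partner Ndufv2 differed by −0.28 ± 0.15 and Ndufs3 by −0.23 ± 0.16. Ndufs1, Ndufs7 and Ndufs8, which hold iron-sulfur clusters of the electron path, stood at 0.10 ± 0.16, 0.05 ± 0.15 and 0.09 ± 0.14. Core genes of the same complex therefore had differences of both signs. Ndufs1 was −0.18 with the slide row as a block, and −0.02 without ICH 3, and Ndufs7 was −0.08 without ICH 2, −0.04 with the slide row as a block and −0.06 with array quality weights.

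The accessory subunits of complex I had the lowest and the highest value of the complex. Ndufa1, a small membrane subunit needed for assembly, stood at 0.27, 1.28 and 1.14 on ICH 1 to 3, against 1.76, 1.55 and 1.57 on sham 1 to 3. Its ICH values were all below sham, with ICH 1 well under the other ICH arrays, and the gene was 1.66-fold lower (−0.73 ± 0.28, limma adjusted p = 0.321). Ndufa11, another membrane subunit, stood at 0.74, 0.62 and 0.62 on ICH arrays and at 0.27, 0.57 and 0.50 on sham arrays. It was the single member whose ICH values all lay above sham, by 0.21 ± 0.14 (limma adjusted p = 0.472). Ndufa4, named with complex I but known to sit in complex IV, differed by −0.12 ± 0.16. The other 21 accessory genes lay between −0.57 for Ndufb3 and 0.07 for Ndufv3.

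Complex II is the membrane-bound enzyme of the citrate cycle and has no mitochondrially encoded subunit. Sdhc, which anchors it in the membrane and binds heme, had 0.76, 0.35 and 1.19 on ICH 1 to 3 and 1.56, 1.47 and 1.40 on sham 1 to 3. The groups did not overlap, ICH 2 was lowest, and Sdhc was 1.64-fold lower (−0.71 ± 0.23, limma adjusted p = 0.289). The partner anchor Sdhd differed by −0.18 ± 0.12. The catalytic subunits stood near it, Sdha, which binds flavin and succinate, at −0.14 ± 0.14 and Sdhb, the iron-sulfur subunit, at −0.21 ± 0.14. Subunits of the same enzyme thus differed in size of difference by more than the SE of each, a gap that was not tested.

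Differences in complex III ran from −0.46 for Uqcr10 to −0.02 for Uqcrc1, one of the large core subunits. Uqcrc1 had 2.46, 2.23 and 2.42 on ICH 1 to 3, against 2.31, 2.42 and 2.46 on sham 1 to 3, and Uqcrc2, its partner, 2.32, 2.37 and 2.44 on ICH arrays, against 2.40, 2.44 and 2.39 on sham arrays. Both overlapped between groups, at −0.02 ± 0.13 and −0.04 ± 0.12. The Rieske iron-sulfur protein Uqcrfs1 differed by −0.18 ± 0.14. The small subunit Uqcr10 had 1.63, 1.71 and 1.97 on ICH arrays and 2.27, 2.18 and 2.23 on sham arrays, with no overlap (−0.46 ± 0.14, limma adjusted p = 0.288). Uqcrh, the hinge protein at the docking site of cytochrome c, had 2.34, 2.59 and 2.65 on ICH arrays and 2.84, 2.87 and 2.83 on sham arrays, also without overlap (−0.32 ± 0.14, limma adjusted p = 0.347). The other small subunits were not all as low: Uqcr11 stood at −0.30 ± 0.16, Uqcrb at −0.20 ± 0.12 and Uqcrq, whose groups overlapped, at −0.09 ± 0.27.

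Complex IV had the widest range of differences. Cox7c, a small membrane subunit, had −1.27, 0.35 and −0.06 on ICH 1 to 3, against 0.82, 0.49 and 0.51 on sham 1 to 3. The groups did not overlap, but ICH 1 lay far below the others, and the 1.91-fold lower mean carried a wide error (−0.93 ± 0.42, limma adjusted p = 0.357). Cox7a2, the form of subunit VIIa found in most tissues, had 1.40, 1.62 and 1.92 on ICH arrays and 2.30, 2.27 and 2.26 on sham arrays. The groups did not overlap, and the gene was 1.55-fold lower with the smallest unadjusted limma p of the 75 genes, 0.00877 (−0.63 ± 0.17, adjusted p = 0.288). Cox4i1 and Cox5a, which flank the mitochondrially encoded core, differed by −0.41 ± 0.25 and −0.42 ± 0.21. Cox5b, a zinc-binding subunit, had 2.89, 2.73 and 3.15 on ICH arrays, against 3.31, 3.32 and 3.30 on sham arrays, without overlap (−0.38 ± 0.15, limma adjusted p = 0.326).

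Several complex IV subunits come as pairs of isoforms, one broadly expressed and one restricted to certain tissues. Cox6a1, the broad form, had 2.84, 3.02 and 3.16 on ICH 1 to 3 and 3.39, 3.36 and 3.32 on sham 1 to 3, without overlap (−0.35 ± 0.14, limma adjusted p = 0.321). Cox6a2, the heart and skeletal muscle form, had 1.06, −0.29 and −0.29 on ICH arrays and −0.89, −1.04 and −0.12 on sham arrays. ICH 1 was high, the other ICH arrays lay between sham 3 and the other sham arrays, and the difference was 0.84 ± 0.44 (limma adjusted p = 0.404). Cox8b, also a muscle form, had −3.52, −4.74 and −3.06 on ICH arrays and −4.39, −2.99 and −4.72 on sham arrays, with wide overlap (0.26 ± 0.60), and its sign turned without ICH 3 or without sham 3 (−0.10 and −0.08). Its broad partner Cox8a stood at −0.50 ± 0.32. Cox4i2, the form of subunit IV known from lung and from hypoxia, stood at −0.50 ± 0.24, beside −0.41 for Cox4i1. Cox6b2, the testis form, differed by −0.54 ± 0.18, and Cox7a2l, a factor that joins complexes III and IV into supercomplexes, by −0.59 ± 0.18, each with all ICH values below sham. Of 5 genes that mark skeletal or heart muscle, 3 were lower and 2 higher, with a median of −0.24, and their part in the Cox6a2 and Cox8b values was not tested.

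All 16 genes of complex V were lower on this scale, where 52.7% of all symbols and 85.4% of the brightest 10% of probes were. In 13 of them every ICH value lay below every sham value, against 16.2% of symbols and 48.8% of that bin, and the median level of the complex was above that of 97.1% of probes. Atp5pf, coupling factor 6 of the stator stalk, had 0.82, 1.36 and 1.64 on ICH 1 to 3, against 2.13, 1.99 and 1.97 on sham 1 to 3. The groups did not overlap, and the gene was 1.69-fold lower (−0.75 ± 0.23, limma adjusted p = 0.288). Atp5pd, also of the stalk, had 1.56, 1.98 and 2.24 on ICH arrays and 2.47, 2.39 and 2.37 on sham arrays (−0.49 ± 0.20, limma adjusted p = 0.331). In the catalytic F1 head and its rotor stalk, Atp5f1a and Atp5f1b, the alpha and beta subunits, differed by −0.24 ± 0.12 and −0.22 ± 0.16, and Atp5f1c and Atp5f1d, the gamma and delta subunits, by −0.06 ± 0.13 and −0.01 ± 0.12. Atp5f1d had 2.62, 2.66 and 2.68 on ICH arrays and 2.64, 2.70 and 2.65 on sham arrays, the groups lying within each other. The epsilon subunit Atp5f1e of the same stalk had 2.16, 2.33 and 2.43 on ICH arrays and 2.74, 2.69 and 2.73 on sham arrays (−0.41 ± 0.13, limma adjusted p = 0.289). The membrane ring is built from 1 protein encoded by several genes, of which Atp5mc1 differed by −0.47 ± 0.16 and Atp5mc2 by −0.23 ± 0.12. Atp5if1, which blocks ATP hydrolysis when the proton gradient collapses, stood at −0.25 ± 0.14.

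**Figure D3:**
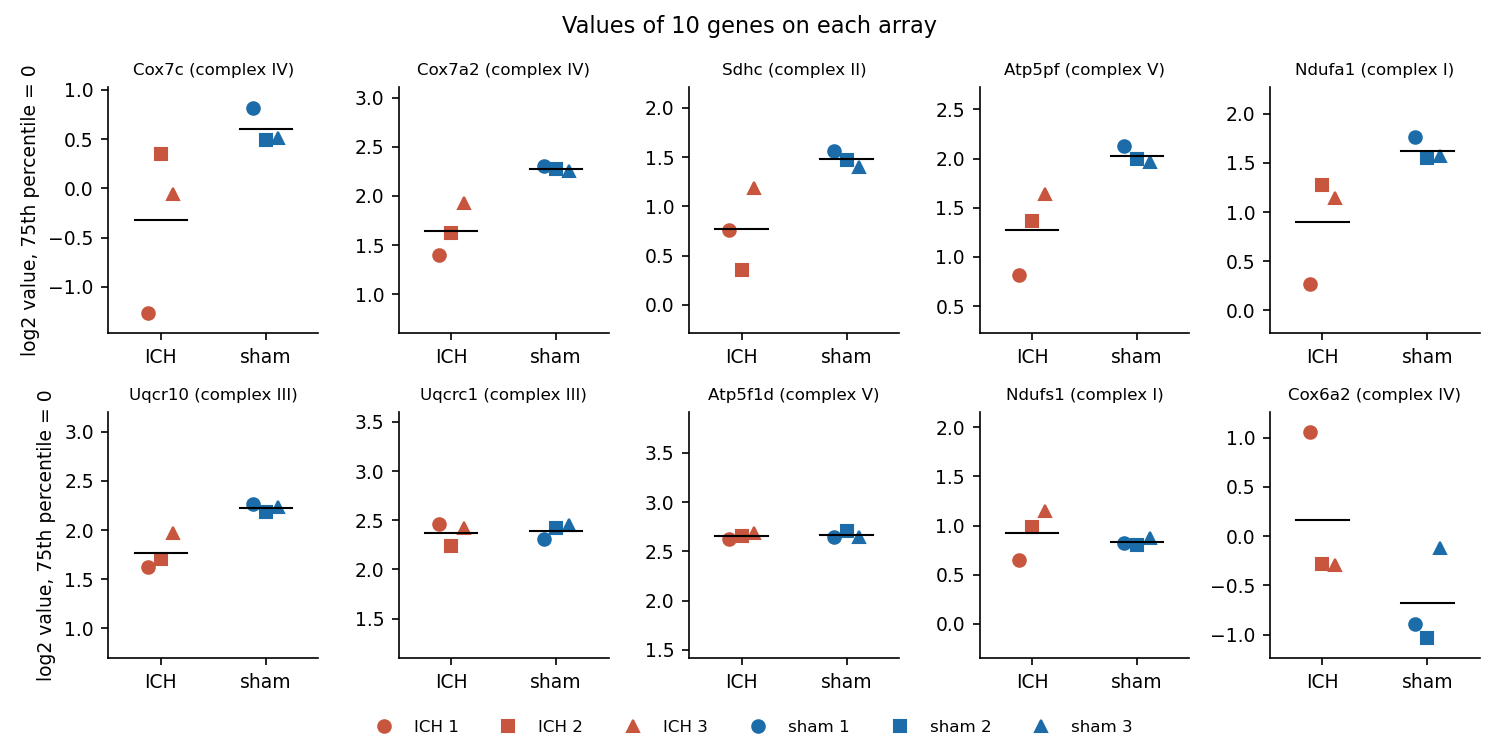
Log2 value on each array, relative to the 75th percentile of the array, for 10 genes, with ICH left of sham, group means as lines and y axes of equal span. Cox7c, Cox7a2, Sdhc, Atp5pf, Ndufa1 and Uqcr10 do not overlap between groups, Uqcrc1, Atp5f1d and Ndufs1 do, and Cox6a2 is highest on ICH 1.

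By pooled median, a list of catalytic and core subunits of complexes I, II, III and V lay nearer to sham than the other members. Its 19 measured genes had a median difference of −0.18, with 16 lower and 3 lower at an unadjusted p under 0.05, against −0.32 over the 56 other genes, with 51 lower and 17 at that p. The gap was seen in complexes III and V, where core genes had medians of −0.04 and −0.22 and the others −0.30 and −0.37. In complex I the medians were −0.23 for 7 core genes and −0.23 for 24 others. All 4 genes of complex II were in the list. None of the 16 genes of complex IV was, and their median was −0.40. Pooled comparisons of core and other genes therefore mixed core status with complex. The pooled gap was −0.13 and kept its sign in all 19 alternative settings, from −0.20 with the slide row as a block to −0.08 without ICH 1. Several of these settings could not change it. They shift whole arrays, change only the filter or the variance, block by replicate number, or take the same probe per gene. The gap was not tested. Core genes had a median level above that of 95.5% of probes and the others above 94.8%. With the members split at their median level, core genes had a median of −0.20 (12 genes) and the others −0.30 (26 genes) in the brighter part, and −0.18 (7 genes) and −0.39 (30 genes) in the dimmer part. The share lower at an unadjusted p under 0.05 was 15.8% of core genes and 30.4% of the others, against 7.67% of all symbols. In the brightest bin of probes, whose median difference was −0.21, that share was 23%. The core share rests on 3 genes, and its distance from the bin was not tested. The 30 dimmer genes among the others had a median level above that of 89.9% of probes. The bin is therefore not matched to them in level.

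**Figure D4:**
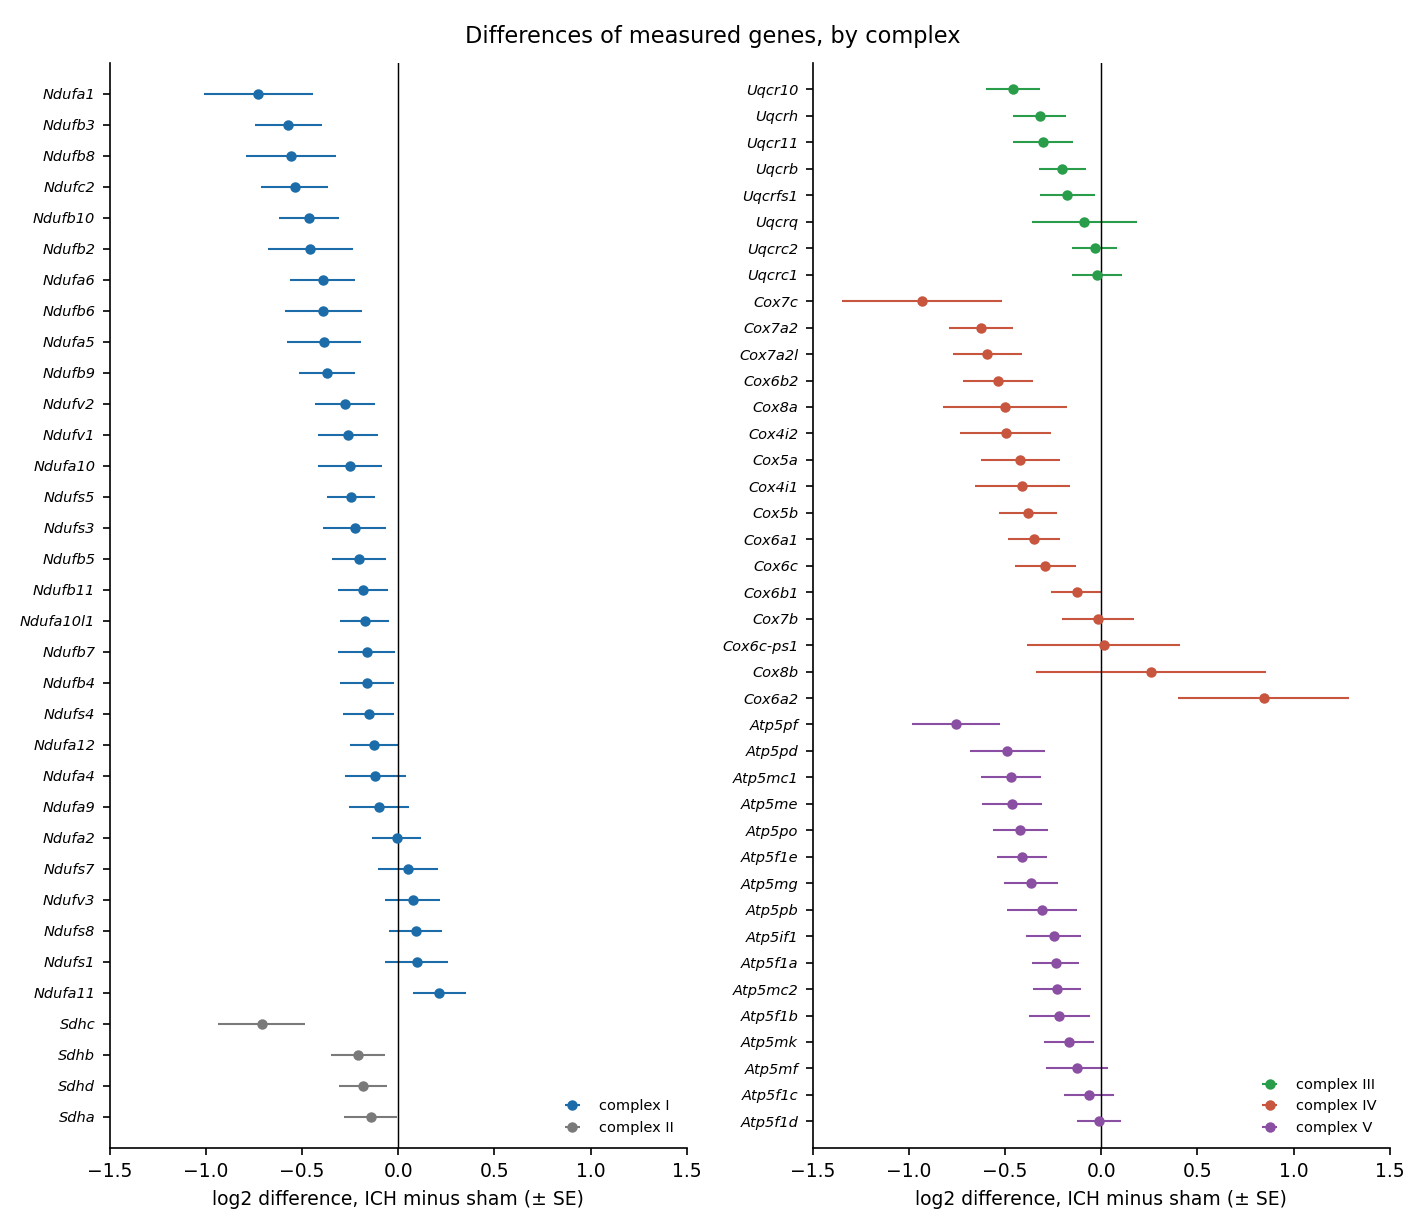
Difference in log2 value, ICH minus sham, with its SE for 74 of the 75 measured genes, grouped by complex and sorted within it. Most lie left of 0 and none passed the adjusted threshold; Ndufa11, Cox8b and Cox6a2 lie furthest right, and spike-in centring turns the sign of most.

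Different probes of a gene did not always give the same value. For 15 genes with more than 1 probe, 33 probes in all, the spread between probes of a gene ran from 0.05 to 0.76 with a median of 0.29, and 6 genes had probes of opposite sign. The largest spreads were those of Cox6b1, Cox7a2 and Atp5mc2. The brightest probe of Cox6b1 gave −0.13 ± 0.13, whereas A_64_P078982 had −2.29, −2.03 and −1.58 on ICH 1 to 3 and −1.18, −1.19 and −1.17 on sham 1 to 3, the smallest unadjusted p of any member probe, 0.00772 (−0.79 ± 0.20, limma adjusted p = 0.288). The other probe of Cox7a2 had 0.10, 1.73 and 0.47 on ICH arrays and 0.69, 0.86 and 0.65 on sham arrays, at 0.03 ± 0.42. ICH 2 stood highest there, as it did for the brighter probe of Cox6c-ps1, a transcribed pseudogene, with −0.68, 0.88 and −0.33 on ICH arrays and −0.10, 0.04 and −0.11 on sham arrays. The subunits of these families have many processed pseudogenes, 99 pseudogene symbols of the rule in the RefSeq table against 110 protein-coding ones, and the files give no probe sequences, so cross-hybridization was not tested.

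The promoters of these genes are known to carry sites for nuclear respiratory factor 1 (NRF1), the ETS factor GABP (also called NRF2), YY1 and the estrogen-related receptors (ERR). RefSeq promoter windows, 250 bases before to 50 after the start of each gene in assembly GRCr8, were at hand for 65 of the 75 measured genes and for 33469 genes in all. On both strands, the NRF1 core GCGCATG was in 16.9% of the members' windows, against 5.06% of the 13150 windows of genes on the array and 3.77% of all windows. The ETS core CCGGAAG was in 30.8%, against 13.0% and 8.75%, the YY1 core AAGATGG in 24.6%, against 7.34% and 7.01%, and the ERR element AAGGTCA in 13.8%, against 3.46% and 4.61%. The Sp1 box GGGCGG was in 41.5% of the members' windows, below the 49.3% of genes on the array and above the 33.1% of all windows. Windows of 5 genes are shown because they span the range of differences, with matches in capitals. Cox7c (chr2:18579121-18579420, minus strand) and Atp5pf (chr11:37375052-37375351, minus strand) were among the lowest genes, Cox5b (chr9:46417587-46417886, plus strand) was lower on every ICH array, Uqcrc1 (chr8:118467973-118468272, plus strand) lay near 0, and Cox6a2 (chr1:192219667-192219966, minus strand) was the highest.
Cox7c: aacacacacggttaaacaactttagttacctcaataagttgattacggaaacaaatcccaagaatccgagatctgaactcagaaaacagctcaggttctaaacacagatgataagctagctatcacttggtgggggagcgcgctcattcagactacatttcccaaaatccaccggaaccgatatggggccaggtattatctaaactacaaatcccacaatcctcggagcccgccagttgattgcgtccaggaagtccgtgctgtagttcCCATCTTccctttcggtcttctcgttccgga
Atp5pf: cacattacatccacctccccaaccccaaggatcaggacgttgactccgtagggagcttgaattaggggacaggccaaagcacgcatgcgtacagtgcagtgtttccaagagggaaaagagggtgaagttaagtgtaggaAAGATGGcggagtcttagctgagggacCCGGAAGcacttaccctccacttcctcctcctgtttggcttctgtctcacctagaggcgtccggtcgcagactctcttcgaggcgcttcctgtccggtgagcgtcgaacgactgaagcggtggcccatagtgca
Cox5b: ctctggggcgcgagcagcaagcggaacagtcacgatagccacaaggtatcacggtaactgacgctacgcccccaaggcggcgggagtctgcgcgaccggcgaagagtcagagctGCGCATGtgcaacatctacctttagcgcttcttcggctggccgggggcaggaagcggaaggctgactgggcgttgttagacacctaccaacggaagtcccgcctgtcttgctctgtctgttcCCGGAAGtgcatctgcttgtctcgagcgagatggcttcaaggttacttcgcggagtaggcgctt
Uqcrc1: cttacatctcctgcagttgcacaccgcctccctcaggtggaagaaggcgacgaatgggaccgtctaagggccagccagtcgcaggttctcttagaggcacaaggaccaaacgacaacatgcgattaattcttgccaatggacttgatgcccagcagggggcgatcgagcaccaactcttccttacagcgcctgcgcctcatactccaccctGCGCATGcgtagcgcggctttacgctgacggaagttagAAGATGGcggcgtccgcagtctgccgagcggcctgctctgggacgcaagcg
Cox6a2: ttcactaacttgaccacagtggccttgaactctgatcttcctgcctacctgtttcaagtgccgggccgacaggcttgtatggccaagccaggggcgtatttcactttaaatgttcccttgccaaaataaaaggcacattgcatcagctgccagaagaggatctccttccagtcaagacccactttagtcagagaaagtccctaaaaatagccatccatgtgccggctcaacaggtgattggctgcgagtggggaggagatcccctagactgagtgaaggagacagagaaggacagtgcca
In capitals are a YY1 match on the opposite strand in Cox7c, YY1 and ETS matches in Atp5pf, NRF1 and ETS matches in Cox5b, and NRF1 and YY1 matches in Uqcrc1. None of the 5 motifs was found in the Cox6a2 window. Motif and difference were set side by side over the 65 genes: the median difference was −0.38 for 11 genes with the NRF1 core and −0.22 for 54 without it, −0.28 for 20 with the ETS core and −0.23 for 45 without, −0.27 for 16 with the YY1 core and −0.24 for 49 without, and −0.25 for 9 with the ERR element and −0.23 for 56 without. Uqcrc1 carries 2 of these matches and differed by −0.02, and Cox7c carries 1 and differed by −0.93.

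Other genes around the pathway did not share one direction. Of 37 measured assembly factors, which build the complexes without staying in them, 21 were lower and 16 higher (median −0.05). At an unadjusted p under 0.05, 2 were lower and 3 higher. Of all symbols 52.7% were lower, and 7.67% were lower and 6.5% higher at that p. Coa8, a complex IV assembly factor, differed by −0.61 ± 0.18 and Coa4 by 0.43 ± 0.13. Of 13 subunits, carriers and coenzyme Q synthesis genes that the symbol rule leaves out, 12 were lower (median −0.21). Among them the synthesis genes Coq9 and Coq5 stood at −0.40 ± 0.16 and −0.44 ± 0.20. Of 12 regulators of nuclear mitochondrial genes, 6 were lower and 6 higher (median 0.03), led by Yy1 at 0.52 ± 0.16 and Pprc1, a relative of PGC-1alpha, at 0.25 ± 0.14. The citrate cycle and pyruvate dehydrogenase had 8 lower and 11 higher of 19 (median 0.01), with Dlat, of the pyruvate dehydrogenase complex, at 0.45 ± 0.17 and Suclg1, of succinyl-CoA ligase, at −0.43 ± 0.17. In glycolysis and hypoxia response 19 of 25 were lower (median −0.17), with Pfkp, a phosphofructokinase, at −0.59 ± 0.18 and the hexokinase gene Hk1 at −0.44 ± 0.15. These signs, too, are relative to the 75th percentile. The lists' median levels were above those of 68.5%, 83.5%, 58.8%, 85.7% and 94.2% of probes, in the order given. Over all probes the median difference was 0.04 in level bin 7 of 10, counted from the dimmest, and −0.21 in the brightest. The lists are thus not matched to the members in level.

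Proteins of the cytosolic and the mitochondrial ribosome were the other large gene sets counted. All 74 measured cytosolic ribosomal protein genes were lower (median −0.41), 42 of them at an unadjusted p under 0.05, against 7.67% of symbols and 23% of the brightest 10% of probes. All ICH values lay below all sham values for 58 of the 74, against 16.2% and 48.8%. Rps12 differed by −0.62 ± 0.15 and Rpl13a by −0.88 ± 0.22. The list's median level was above that of 98.1% of probes. The 67 mitochondrial ribosomal protein genes, whose median level was above that of 80.3% of probes, had 36 lower and 31 higher (median −0.05), with Mrps26 at −0.63 ± 0.20 and Mrps22 at 0.51 ± 0.17. limma called 0 genes of any of these lists, and the smallest adjusted p in them was 0.288.

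Markers of cell types differed between the groups as well. In bulk tissue fewer cells of a type, less RNA per cell and a difference in the region taken cannot be told apart. The labels name the tissue differently in the 2 groups, and the dissection is not stated. Of 7 measured general neuron markers 3 were lower and 4 higher, with a median of 0.20, with Syt1, a synaptic vesicle protein, at 0.63 ± 0.14 and Map2, of dendrites, at −0.43 ± 0.17. All 8 striatal projection neuron markers were lower, with a median of −0.996, Rgs9 at −1.52 ± 0.42 and the opioid precursor Penk at −1.02 ± 0.30. The list's median per array, relative to the sham mean, was −0.73, −1.53 and −1.001 on ICH 1 to 3 and 0.32, 0.37 and −0.68 on sham 1 to 3. All 5 cortical projection neuron markers measured were higher, with a median of 1.01, Neurod6 at 2.03 ± 0.16 (limma adjusted p = 0.0781) and Slc17a7, the vesicular glutamate transporter, at 1.53 ± 0.30. Their per-array medians were 0.95, 1.53 and 1.05 on ICH 1 to 3 and 0.37, −0.56 and 0.24 on sham 1 to 3. For both lists the ICH medians lay outside the range of the sham medians, and the part of these neurons in the values of the respiratory chain genes was not tested.

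Monocyte and neutrophil markers were high on ICH 1 and ICH 2 and not on ICH 3, whereas erythroid markers did not follow that order. All 6 monocyte or macrophage markers were higher, with a median of 2.43, 2.48 and −0.40 on ICH 1 to 3, against −0.30, 0.24 and 0.12 on sham 1 to 3, and Spp1 and Cd14 differed by 2.72 ± 0.64 and 2.18 ± 1.01. Of 4 measured neutrophil markers 3 were higher, the list's median being 2.75, 3.26 and −0.17 on ICH 1 to 3, against −0.59, −0.14 and 0.74 on sham 1 to 3. Mmp9 was well above background on the 3 ICH arrays and on 0 sham arrays. It passed the filter only through the ICH arrays, so its place in this count and in these medians is no evidence of a difference. S100a9 differed by 1.85 ± 0.90. The neutrophil markers Mmp8 and Cxcr2 were not kept. On ICH 3, where the monocyte and neutrophil lists had medians below 0, the members' median was −0.11, and without ICH 3 it was −0.33. Of 3 erythroid markers all were higher (median 0.64), with Alas2 at 1.72 ± 0.62 and Hbb at 0.64 ± 0.31. Their per-array median was 0.44, 0.98 and 0.49 on ICH 1 to 3, against 0.62, −0.39 and −0.26 on sham 1 to 3, so the groups overlapped and ICH 3 was not the lowest ICH array. The part of these cells in the members' values was not tested.

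Glial and vessel markers were mostly lower, with none called. Medians were −0.36 for 6 astrocyte, −0.31 for 6 oligodendrocyte, −0.37 for 5 microglia and −0.45 for 5 endothelium markers, of which 4, 6, 3 and 4 were lower. Aqp4, the astrocyte water channel, differed by −0.46 ± 0.13 and Aldh1l1 by −0.35 ± 0.21. The myelin genes Mag and Mbp differed by −0.43 ± 0.16 and −1.11 ± 0.45, the microglia genes Aif1 and P2ry12 by −0.37 ± 0.12 and −1.01 ± 0.36, and the endothelium genes Tek and Pecam1 by −0.45 ± 0.12 and −0.59 ± 0.22. Among muscle markers Myh7 stood at −0.67 ± 0.16 and Acta1 at 0.50 ± 0.21.

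**Figure D5:**
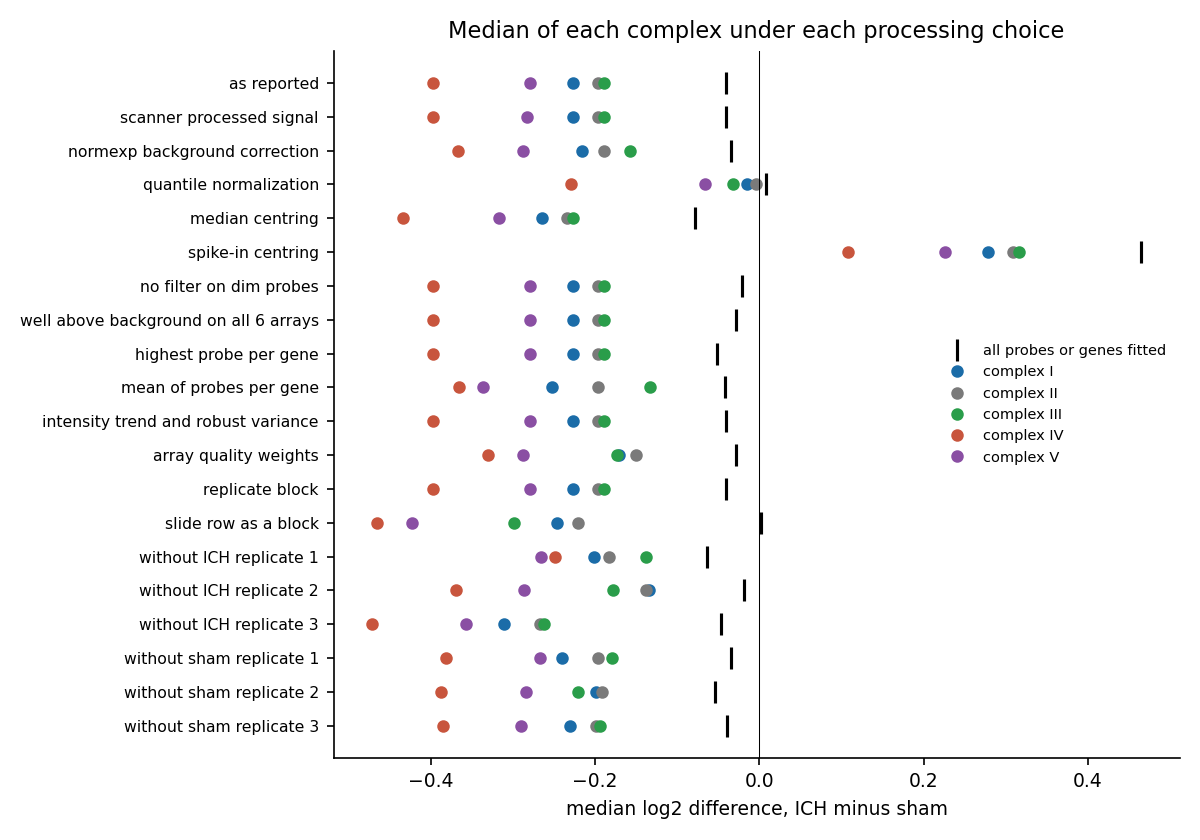
Median log2 difference, ICH minus sham, of each complex under the reported processing and each of 19 alternatives, with a black bar for the median of all rows of that fit. Complex IV is lowest in all but the fit without ICH 1, and the medians shrink with quantile normalization. Spike-in centring shifts all rows alike, so the medians lie above 0 but still below the bar.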

How the data were processed

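Members and gene lists were chosen with earlier results of these data known. The log2 values are those of the deposited table. Log2 processed signal, averaged over the spots of each probe and centred on the array's 75th percentile, came within 0.001 of them for 98.6% to 99.3% of probes; no source states this step. Intensity values were made by the authors with Agilent Feature Extraction 11.5.1.1, per the file headers (10.7, per the submitters' processing notes), which subtract background within each array. Other columns used, per the file headers, are spot flags (above background, saturation, uniformity). RNA was amplified linearly and labelled with Cy3, per the labels' protocols.

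Accessions were matched to the RefSeq table of GRCr8, for names only: 18347 probes had 1 symbol, 0 several and 12020 none. A probe was kept (24650) if at least 0.5 of its spots were well above background on at least 3 of 6 arrays. limma 3.58.1 (lmFit, eBayes, R 4.3.3; no covariate, two-sided) was run over all kept probes with Benjamini-Hochberg adjustment, and the same fit was tested on simulated data; called means an adjusted p under 0.05. A gene is its kept probe with the highest mean. Medians and counts over lists carry no test. Named were, in each complex, the 2 highest and 2 lowest genes, the core subunits, isoform pairs, genes with an unadjusted p under 0.01, Atp5if1, and from other lists the 2 smallest p; other members named were chosen after their values were seen, and 1 gene that the rule selects is not reported here. Tables were made with Python 3.11.15, pandas 2.3.3 and numpy 2.4.6, and figures with matplotlib 3.10.9. The 19 alternatives covered values, background, normalization, filter, probes per gene, variance, weights, slide row, replicate number and leaving out each array.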

Additional observations from a re-analysis of the deposited data

How the results depend on the processing

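The count of member probes called stayed at 0 in all 19 alternatives. Genes lower at an unadjusted p under 0.05, 20 as reported, numbered 8 with quantile normalization, 0 with spike-in centring (where 4 were higher), 31 with an intensity trend and robust variance, and 1 to 26 with 1 array left out; with the slide row as a block 1 gene was higher. Quantile normalization gave medians of −0.0536 over all members and −0.0146, −0.00358, −0.0321, −0.230 and −0.0658 in complexes I to V, where all probes stood at 0.01. Spike-in centring gave 0.26, and 0.28, 0.31, 0.32, 0.11 and 0.23, where all probes stood at 0.46. It shifts all probes of an array alike, so the place of the members below the median of all probes could not change. With quantile normalization, which can change it, these medians also lay below that of all probes. The slide row as a block, which leaves ICH 1 against sham, gave −0.30 in complex III and −0.42 in complex V. With 1 array left out the median over all members ran from −0.33 to −0.20, and complex medians from −0.31 to −0.13, −0.27 to −0.14, −0.26 to −0.14, −0.47 to −0.25 and −0.36 to −0.27 in complexes I to V. The other 146 values of counts and medians moved by less than the spread between ICH arrays or by under 1.5 times, and the cause of these changes was not tested. Of the values for 42 named genes, 747 kept their sign and 51 turned it, 28 of these with spike-in centring and 9 with quantile normalization, none of them called. The filters, the variance model, the replicate block and the highest probe per gene could not turn a sign.

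Replicate numbers are shared by the labels, but samples with the same number did not deviate together (correlations across probes of −0.19, −0.01 and 0.07), so the numbers give no pairing; with a replicate block 8 genes were lower at an unadjusted p under 0.05, 0 member probes were called, and the median over all members was −0.25 as without it. Over all probes the count called was 31 without ICH 3, 8 without ICH 2, 35 with spike-in centring, 8 with array quality weights, 4 with the filter on all 6 arrays, 4 with an intensity trend and robust variance, 3 with normexp and 3 with quantile normalization, and 0 otherwise, against 0 as reported. All 93 kept member probes were well above background on all 6 arrays, and the probe of Cox8c was not on any.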
